A study of Mus musculus with 6 samples.

Results

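The genes described here are 30 genes of the integrated stress response and of the unfolded protein response, taken from the feature tables of a single-nucleus RNA sequencing study of mouse liver by their symbols. They occupied 31 of the 32285 features, because Ddit3 is listed under 2 overlapping gene identifiers, one of which had 0 UMIs in every class of nuclei. Unique molecular identifiers (UMIs) count captured RNA molecules. The study sequenced liver nuclei of 3 knockout and 3 control mice, one library per mouse. In the knockout mice Plvap, which forms the diaphragms that span fenestrae and caveolae, was deleted from hepatic stellate cells, the retinoid-storing pericytes of the sinusoid. The controls were littermates.

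All 6 mice were males of strain C57BL/6JBomTac on chow, 18 weeks old, and fasted overnight for 12 hours. Both groups carry 1 strain designation in the labels, with a targeted Plvap allele and a Cre transgene under Lrat regulation, which is active in stellate cells. Cre status of the controls and the deleted exons are not stated in the labels. Plvap in stellate nuclei was at 236, 191 and 158 CPM (a gene's UMIs relative to all UMIs of the class) in the knockout mice, against 246, 235 and 255 CPM in the control mice, with a log2 fold change of -0.33 ± 0.14 (SE) and an adjusted p of 0.999 in edgeR's quasi-likelihood test. With the deleted exons unknown, this count does not check the labels. CPM values below were scaled by the TMM method unless called unscaled. Sums over genes, levels in single clusters and levels set between classes are unscaled throughout.

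Cells answer unfolded protein in the endoplasmic reticulum through 3 membrane sensors. Eif2ak3 encodes PERK, which phosphorylates the translation factor eIF2α and so raises translation of the transcription factor ATF4. Ern1 encodes IRE1α, which splices the Xbp1 transcript into the form that encodes an active factor, and Atf6 encodes a factor released by cleavage in the Golgi. ATF4 is also reached by other eIF2α kinases, such as the amino acid sensor GCN2, which is why that branch is called the integrated stress response. In hepatocytes, which secrete most plasma proteins, the chaperones of this pathway are needed for normal secretion and are known to vary with feeding. UMIs at the 3′ end do not tell spliced from unspliced Xbp1, and the sensors act through their proteins, so these counts show transcript abundance only.

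The promoters of several members hold the element read by ATF6 and XBP1, and their sites are shown to set the sequences of these chaperones beside their levels. RefSeq promoters of build GRCm38.p6, from 250 bases before to 50 bases after the start, were found for 27 of the 30 members, with 29 promoters in all. The endoplasmic reticulum stress element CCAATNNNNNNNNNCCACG, searched on both strands, stood in 7 of these 29 promoters and in 39 of all 32851 promoters, or 0.119%. The sites below are written 5′ to 3′ on the strand of the gene with 5 flanking bases, and the capitals mark the fixed letters of the element or of its reverse complement.

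Hspa5: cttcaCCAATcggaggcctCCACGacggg
Pdia6: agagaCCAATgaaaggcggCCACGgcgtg
Dnajc3: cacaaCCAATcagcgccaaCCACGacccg
Canx: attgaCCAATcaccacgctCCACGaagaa
Hsp90b1: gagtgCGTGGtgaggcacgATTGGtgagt
Calr: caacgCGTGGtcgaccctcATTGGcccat
Creld2: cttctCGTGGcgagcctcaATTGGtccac

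The Hspa5 site lies at chr2:34772020-34772048 on the plus strand, and its element begins 65 bases before the RefSeq start used for the promoter. The GENCODE annotation starts the gene further upstream, at 34771970, so the site lies inside that gene model. The elements of the other 6 genes begin 98 to 162 bases before their RefSeq starts, and Hsp90b1 has a second element that begins 212 bases before it. The C/EBP-ATF response element TGATGNAA, read by ATF4, stood in 5 of the 29 member promoters (Asns, Chac1, Herpud1, Nupr1 and Trib3) and in 3.97% of all promoters. The Trib3 match lies after the RefSeq start. The Herpud1 and Asns sites are shown because Herpud1 was the member with the most UMIs in hepatocytes and Asns is a textbook ATF4 target.

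Herpud1: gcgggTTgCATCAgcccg
Asns: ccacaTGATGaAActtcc

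The sequence TGACGTGG, bound by XBP1, stood in 0 of the 29 member promoters and in 0.676% of all promoters. Both CCAAT and CCACG, at any distance and on either strand, stood in 18 of the 29 member promoters and in 11.7% of all promoters. A match is a description of these letters in this window.

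Library totals were alike across mice, and the deposited matrices held 23153182 to 27199466 UMIs per library. After filtering, 4421, 4078 and 3954 nuclei remained in the knockout mice and 5006, 4675 and 3528 in the control mice. Their median depth ran from 4075.5 UMIs in control 1 to 5328 UMIs in control 3. Clusters were assigned to 7 testable classes by marker genes, and control 1 had the lowest median depth in each of these. Hepatocytes numbered 781, 918 and 701 nuclei in the knockout mice and 1128, 722 and 990 in the control mice, with median depths of 9185 to 11748 UMIs. Hepatocyte nuclei clustered in part by mouse. A cluster led by Angptl8, Ces3b and Pklr held 78.5% of the hepatocytes of knockout 2 and 77.9% of those of control 1, and at most 0.139% of those of any other mouse. Another held 78.2% of the hepatocytes of knockout 1 and at most 2.57% of those of any other mouse. Pairs of libraries shared 1 to 10 cell barcodes.

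In hepatocytes no member differed between knockout and control mice past the threshold (adjusted p under 0.05 in edgeR's quasi-likelihood test, corrected by Benjamini-Hochberg over all 13784 genes tested). Of the 26 members tested, 9 had a higher and 17 a lower mean fitted level in the knockout, with a median log2 fold change of -0.19, against -0.002 over all genes tested. Among all genes 0 (0%) were called by edgeR and 13 by DESeq2, and 473 had an unadjusted p under 0.05. None of the 26 members had an unadjusted p under 0.05, and the 3 knockout libraries lay all above or all below the 3 controls for 0 of 26 members, against 7.65% of all genes. The share lower in the knockout was 80.8% without control 1, 42.3% without knockout 2 and 69.2% without both. Standard errors of the members ran from 0.16 to 0.80 log2 units. The plot of fold changes by class shows these values beside those of the other classes.

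**Figure D1:**
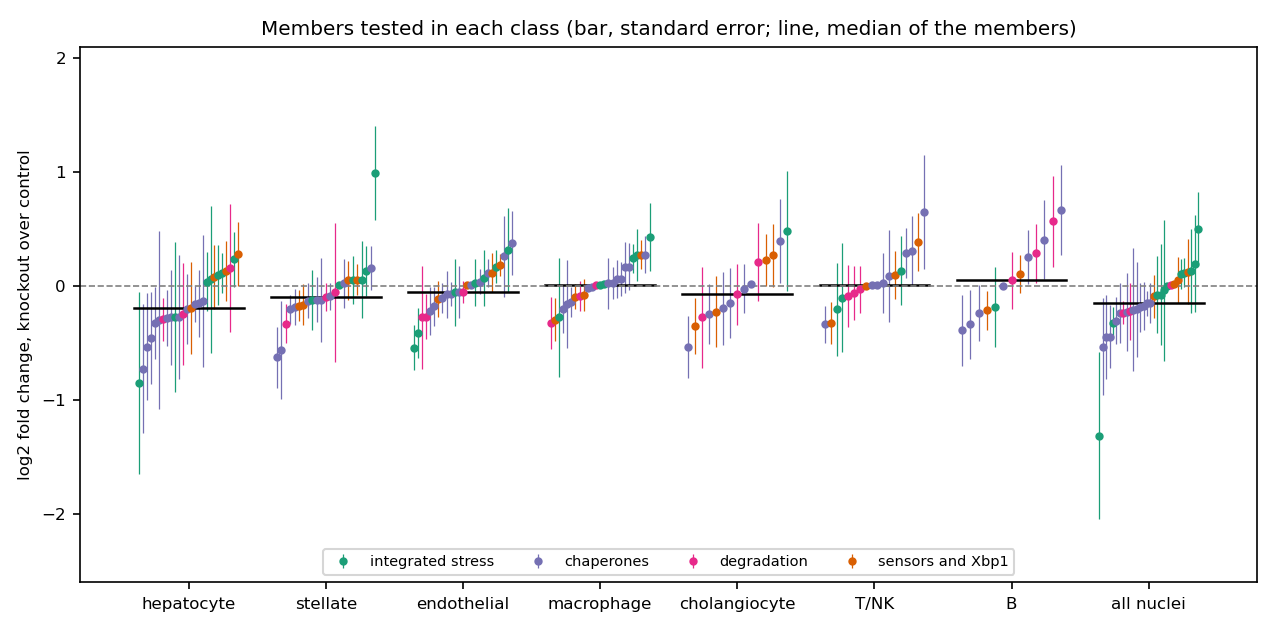
Log2 fold change of each tested member, knockout over control, in 7 classes and in all kept nuclei. Points are members coloured by group, vertical bars are standard errors (left out where the fold change was within 0.02 of 0) and horizontal lines are medians, from -0.19 in hepatocytes to 0.05 in B cells.

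The sensors were measured in every mouse. Eif2ak3 had 46.3, 26.6 and 61.4 CPM in knockout hepatocytes (mice 1 to 3), against 27.4, 69.6 and 56.0 CPM in control hepatocytes. Atf6 had 258, 180.0 and 335 CPM in knockout hepatocytes, against 178, 266 and 288 CPM in control hepatocytes. For both genes the 2 lowest mice were knockout 2 and control 1, and the groups overlapped. The log2 fold changes were -0.19 ± 0.40 for Eif2ak3 and 0.08 ± 0.28 for Atf6 (SE, adjusted p of 1 in edgeR for each).

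Ern1 and its substrate Xbp1 ran the other way. Ern1 had 294, 448 and 243 CPM in knockout hepatocytes, against 337, 209 and 264 CPM in control hepatocytes. Xbp1 had 79, 149 and 105 CPM in knockout hepatocytes, against 120.4, 103 and 79.5 CPM in control hepatocytes. Knockout 2 was the highest and control 1 the second highest mouse for both. The log2 fold changes were 0.28 ± 0.28 for Ern1 and 0.14 ± 0.26 for Xbp1 (SE, adjusted p of 1 in edgeR). Without knockout 2 the fold change of Ern1 was -0.004 and that of Xbp1 was -0.13.

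Among transcription factors of the integrated stress response, Atf4 and Ddit3 varied less between mice than the sensors and Xbp1. Atf4 had 56.5, 82.3 and 79.4 CPM in knockout hepatocytes, against 70.8, 68.1 and 62.5 CPM in control hepatocytes. Ddit3, which encodes the proapoptotic factor CHOP, had 17.8, 27.6 and 27.6 CPM in knockout hepatocytes, against 21.6, 24.5 and 15.9 CPM in control hepatocytes. The groups overlapped for both, and the log2 fold changes were 0.12 ± 0.18 and 0.24 ± 0.24 (SE, adjusted p of 1 in edgeR). Atf5, a factor translated like ATF4, had 278, 204 and 291 CPM in knockout hepatocytes, against 253, 163 and 306 CPM in control hepatocytes. It and the next 3 genes are named here for their role, outside the rule that chose the other genes. Trib3, a pseudokinase induced by ATF4 and CHOP, had 5.37, 3.45 and 15.6 CPM in knockout hepatocytes, against 3.09, 10.8 and 9.49 CPM in control hepatocytes. Asns, asparagine synthetase, had few UMIs, at 4, 8 and 18 UMIs in the knockout mice, against 7, 32 and 21 UMIs in the control mice. Ppp1r15a, the phosphatase subunit GADD34 that reverses eIF2α phosphorylation, ranged from 5.06 to 8.64 CPM over the 6 mice. Chac1, Phgdh, Nupr1 and Psat1 had 16, 21, 10 and 8 UMIs over all hepatocytes and did not pass the filter on low counts.

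Sesn2, the sestrin that restrains mTORC1, differed most between mice among members of at least 10 CPM. It had 15.7, 5.32 and 18.2 CPM in knockout hepatocytes, against 4.2, 19.3 and 23.6 CPM in control hepatocytes. The same mice were again lowest, and the highest mouse stood 5.62 times above the lowest. The log2 fold change was -0.27 ± 0.66 (SE, adjusted p of 1 in edgeR).

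Of the degradation genes, Herpud1, a membrane protein that organises the ubiquitin ligase complex, had 688, 382 and 1017 CPM in knockout hepatocytes, against 207, 879.9 and 785 CPM in control hepatocytes. The highest mouse stood 4.92 times above the lowest and the 2 groups overlapped, with a log2 fold change of 0.16 ± 0.56 (SE, adjusted p of 1 in edgeR). Sel1l, the adaptor of the same ligase, had 216, 89.9 and 251 CPM in knockout hepatocytes, against 119, 280.0 and 262 CPM in control hepatocytes. For both genes the lowest mice were control 1 and knockout 2. Edem1, a lectin that directs misfolded glycoproteins to degradation, ranged from 72.1 to 128 CPM and did not follow that order.

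The chaperones and folding enzymes moved together across mice. Creld2, an oxidoreductase, had 18.0, 10.4 and 26.5 CPM in knockout hepatocytes, against 10.5, 50.9 and 29.2 CPM in control hepatocytes. Pdia4, a disulfide isomerase, had 89.5, 23.6 and 99.1 CPM in knockout hepatocytes, against 34.5, 96.7 and 101 CPM in control hepatocytes. Pdia6, another isomerase, had 63.9, 29.7 and 106 CPM in knockout hepatocytes, against 34.5, 116 and 89.7 CPM in control hepatocytes. In each, knockout 2 and control 1 were the lowest mice and the 2 groups overlapped. Dnajb9, the ERdj4 cochaperone, had 37.4, 18.1 and 41.1 CPM in knockout hepatocytes, against 19.7, 60.9 and 59.0 CPM in control hepatocytes. The log2 fold changes of these 4 genes lay between -0.72 ± 0.57 for Creld2 and -0.13 ± 0.58 for Pdia4 (SE, adjusted p of 1 in edgeR). Hspa5, the BiP chaperone that holds the sensors inactive, had 141, 86.8 and 147 CPM in knockout hepatocytes, against 89.2, 162 and 179 CPM in control hepatocytes. It is named for its role, as is Hsp90b1, the GRP94 chaperone, which had 305, 149 and 348 CPM in knockout hepatocytes, against 172, 403 and 395 CPM in control hepatocytes. The same 2 mice were lowest.

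**Figure D2:**
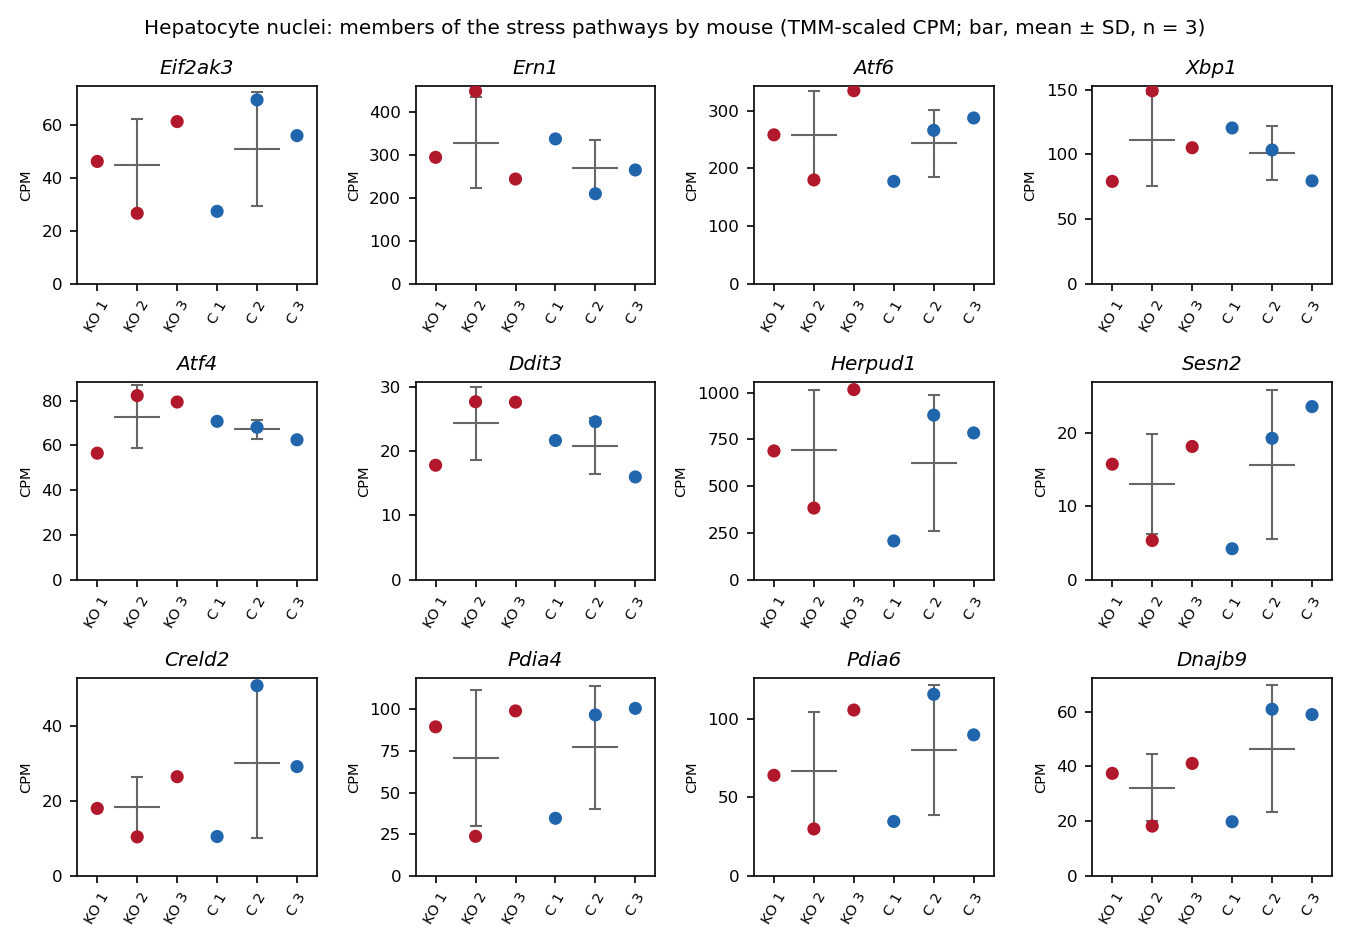
Level of 12 members in hepatocyte nuclei of each mouse, in TMM-scaled CPM from 0, with knockout mice (KO, red) left of control mice (C, blue). Horizontal bars are the mean and vertical bars the SD of 3 mice. Knockout 2 and control 1 are the 2 lowest mice for 8 of the 12 genes and the 2 highest for Ern1 and Xbp1.

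This order was counted over all members. The pair of mice was picked after its values were seen, and no test was made of it. Knockout 2 and control 1 were the 2 lowest mice for 18 of the 26 tested members in hepatocytes (69.2%), against 17.7% of all genes tested. They were the 2 highest for 2 members, Ern1 and Xbp1, against 19% of all genes. The 18 comprised all 12 chaperones and folding enzymes, among them the 7 with the stress element shown above and Dnajb9, Sdf2l1 and Pdia4, whose promoters held no match to it, 2 of 3 degradation genes (Herpud1 and Sel1l), 2 of 4 sensors and factors (Eif2ak3 and Atf6) and 2 of 7 integrated stress genes (Sesn2 and Trib3). With unscaled CPM the count was 17, since Canx, the calnexin chaperone, then had control 1 as its second highest mouse, at 240.2 CPM. Summed over the 12 chaperones, the level was 1389, 889 and 1572 CPM in knockout hepatocytes, against 1031, 1788 and 1592 CPM in control hepatocytes. The 3 degradation genes summed to 998, 582 and 1348 CPM in knockout hepatocytes, against 456, 1256 and 1029.6 CPM in control hepatocytes. The 11 integrated stress genes, of which Atf5 made up the largest part, summed to 379.97, 355 and 434 CPM in knockout hepatocytes, against 386, 292 and 383 CPM in control hepatocytes, and there control 2 was lowest.

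**Figure D3:**
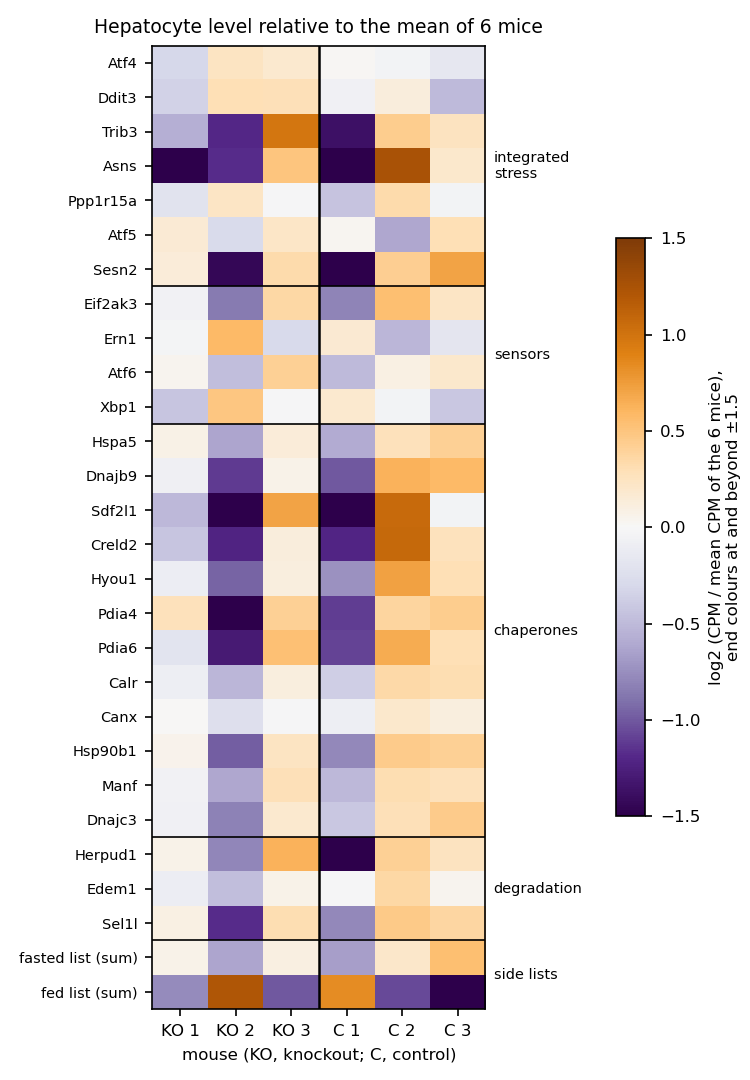
Level of the 26 tested members in hepatocytes of each mouse, as log2 of the CPM over its mean in the 6 mice, with knockout mice (KO) left of control mice (C), and the sums of the fasting and feeding lists below. Purple is under and orange over the mean. The columns of knockout 2 and control 1 are purple over the 12 chaperones and orange for the feeding list.

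Genes of the fasting and feeding response were read beside this order. The 9 fasting genes found, among them Pck1, G6pc and Tat, summed to 12717, 7879 and 13081 CPM in knockout hepatocytes, against 7696, 14050 and 17804 CPM in control hepatocytes. The 9 feeding genes, among them Pklr and Angptl8, summed to 142, 560 and 120.1 CPM in knockout hepatocytes, against 432, 116 and 78.5 CPM in control hepatocytes. These 2 mice, knockout 2 and control 1, were thus lowest for the first sum and highest for the second. Angptl8, which also leads the cluster of these mice, gave a large part of the second, at 210.8 TMM-scaled CPM in knockout 2 and 106 in control 1. Scd1, Srebf1 and Thrsp of the feeding list did not have these mice highest. Pdk4 and Ppargc1a of the fasting list did not have them as the 2 lowest. The sum of 12 hepatocyte markers was also lowest in these mice, at 16573 CPM in knockout 2 and 11273 CPM in control 1, against 21542 to 29664 CPM in the other 4 mice. Pck1 and Tat are in both the marker list and the fasting list. The 14 immediate early genes did not follow this order, with 221, 426 and 613 CPM in the knockout mice and 356, 427 and 248 CPM in the control mice. The mitochondrial share of UMIs averaged 0.271% to 0.310% over the libraries. The part of any of these in the order of the stress genes was not tested.

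The wider pathway lists, which hold no member, gave a similar picture for the unfolded protein response. Of 39 further genes of that response tested in hepatocytes, 10 were higher and 29 lower in the knockout, 0 passed the threshold, and the median log2 fold change was -0.10. The 2 lowest mice were again knockout 2 and control 1 for 19 of the 39 (48.7%, against 17.7% of all genes). Among the 19 were Pdia3, Os9, Derl1 and Syvn1. The same mice were the 2 highest for 2 of the 39 (against 19% of all genes). Of 30 further integrated stress genes tested, 13 were higher and 17 lower, and 0 passed. Knockout 2 and control 1 were lowest for 5 of them (16.7%, against 17.7% of all genes). They were highest for 8 of the 30, among them Fgf21 (against 19% of all genes). Cth and Ddit4 of the integrated stress list had the smallest unadjusted p of both lists. Cth, cystathionine gamma-lyase, had 418, 323 and 575 CPM in knockout hepatocytes, against 695, 605 and 653 CPM in control hepatocytes. All 3 knockout mice lay below the controls, with a log2 fold change of -0.57 ± 0.24 (SE) and an adjusted p of 1 in edgeR. Ddit4, the mTORC1 inhibitor REDD1, had 6.44, 5.51 and 21.5 CPM in knockout hepatocytes, against 4.63, 68.7 and 54.1 CPM in control hepatocytes.

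Hepatocytes of each mouse fell into a larger cluster and a cluster led by pericentral genes, either Cyp2e1 and Cyp2c enzymes or Lgr5 and Tbx3. The pericentral clusters of knockout 2 and control 1 were those led by Lgr5 and Tbx3. Cyp2e1 was at 1458 to 2642 CPM in these clusters and at 21.7 to 59.3 CPM in the larger ones. Of the 23 members with at least 10 UMIs in every such cluster of every mouse, 2 were lower in the pericentral cluster in all 6 mice (Herpud1 and Dnajc3) and 2 were higher in all 6 (Trib3 and Eif2ak3). No share over all genes is given for this, so these counts have no background beside them. Trib3 had as few as 10 UMIs in a cluster. Herpud1 was at 445, 254 and 659 CPM in the pericentral clusters of the knockout mice and at 168, 715 and 564 CPM in those of the control mice. In the larger clusters it was at 732, 446 and 1108 CPM in the knockout mice and at 237, 951 and 758 CPM in the control mice. Herpud1 was therefore lowest in knockout 2 and control 1 in both kinds of cluster. Trib3 was at 11.8, 8.94 and 21.1 CPM in the pericentral clusters of the knockout mice and at 4.31, 11.8 and 9.56 CPM in those of the control mice. In the larger clusters it was at 3.85, 2.39 and 13.5 CPM in the knockout mice and at 3.06, 9.75 and 8.14 CPM in the control mice. Clusters were built from the same counts, so these levels are a description.

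**Figure D4:**
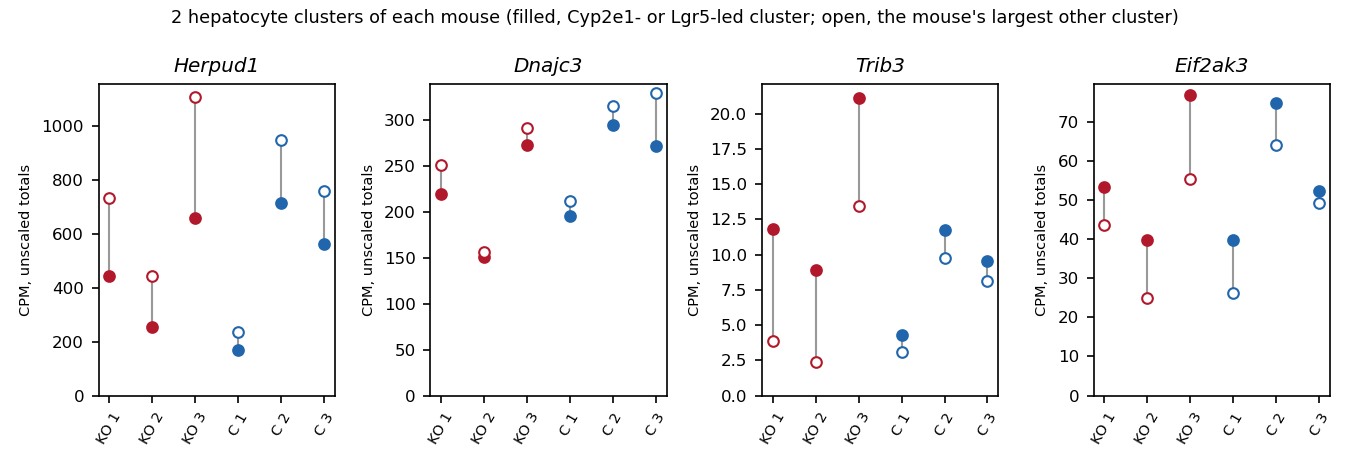
Level of 4 members in 2 hepatocyte clusters of each mouse, in unscaled CPM from 0, knockout mice (KO) left of control mice (C). Filled points are the cluster led by Cyp2e1 or Lgr5 and open points the mouse's largest other cluster. Herpud1 and Dnajc3 are lower, and Trib3 and Eif2ak3 higher, in the filled point of all 6 mice.

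The order of the mice in hepatocytes was then set against the order in the other classes. The pair was lowest for 8 of 25 members tested in macrophages (32.0%, against 11.7% of all genes), for 4 of 25 in endothelial cells (16.0%, against 11.6%) and for 4 of 23 in stellate cells (17.4%, against 9.02%). It was so for 1 of 18 in T/NK cells (5.56%, against 7.6%), 1 of 15 in cholangiocytes (6.67%, against 8.68%) and 0 of 13 in B cells (against 7.71%). The chaperone sum in stellate nuclei was 378, 418 and 417 CPM in the knockout mice, against 385, 469 and 434 CPM in the control mice, where knockout 1 was lowest. In endothelial nuclei it was 401, 444 and 441 CPM in the knockout mice, against 394, 429.9 and 433 CPM in the control mice, where control 1 and knockout 1 were lowest. In macrophages it was 938, 742 and 764 CPM in the knockout mice, against 706, 830.2 and 835 CPM in the control mice, where control 1 and knockout 2 were lowest. With each nucleus thinned to 1500 UMIs the macrophage order was not kept, and these mice were lowest in chaperone sum in 1 class, the hepatocytes. The degradation sum was lowest in the same pair in endothelial nuclei too, at 203, 175 and 234 CPM in the knockout mice, against 175, 259 and 237 CPM in the control mice. Of its genes, only Herpud1 had this pair lowest there. Herpud1 was at 75.4, 58.7 and 128 CPM in the knockout mice, against 52.9, 129.5 and 122 CPM in the control mice. Sel1l ranged from 82.2 to 88.2 CPM over the mice, and both Sel1l and Edem1 were lowest in knockout 3. With thinned nuclei the pair was lowest for the degradation sum in 4 of the 7 classes. The part of Herpud1 alone, and of hepatocyte RNA released into other droplets, in these orders outside hepatocytes was not tested.

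**Figure D5:**
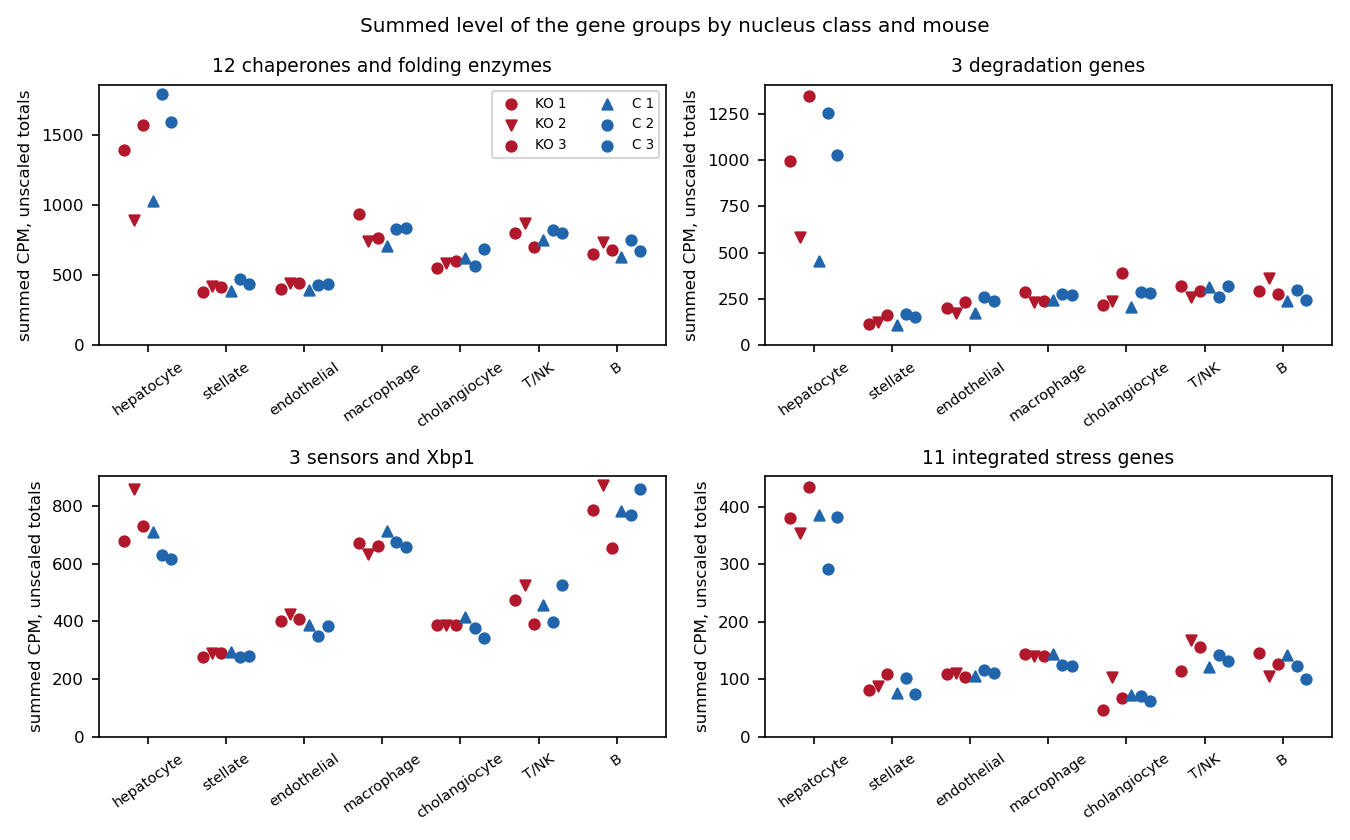
Summed level of 4 gene groups in each class and mouse, in unscaled CPM from 0, with knockout mice (KO, red) left of control mice (C, blue) within a class. Triangles mark knockout 2 and control 1. The chaperone sum ranges 2.01-fold over mice in hepatocytes and 1.13-fold in endothelial nuclei.

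Sesn2 showed opposite orders in hepatocytes and macrophages. In macrophages its unscaled level was 19.6, 37.9 and 14.5 CPM in the knockout mice, against 48.6, 19.3 and 18.0 CPM in the control mice. Knockout 2 and control 1 were the highest there and the lowest in hepatocytes. The macrophages came from different clusters by mouse. In a cluster led by Il1b lay 677 of 702 nuclei of knockout 2 and 858 of 882 of control 1. This cluster also held 631 of 720 nuclei of knockout 1, where Sesn2 was at 19.6 CPM, and 307 of 631 of control 3. Another was led by Kcnj16 and had Cd5l and Cd163 among its leading genes. It held 629 of 737 nuclei of knockout 3 and 576 of 765 of control 2. The part of these clusters in the Sesn2 levels was not tested. Sesn2 was singled out after its values were seen, and the difference between the classes was not tested.

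Levels by class were read within a gene, as unscaled CPM. By the mean over mice, hepatocytes were the highest of the 7 classes for 20 of the 30 members, and in all 6 mice for 5 of them (Atf5, Dnajb9, Ern1, Herpud1 and Hyou1). The share of all genes highest in hepatocytes is not given, so these counts have no background beside them. Over mice, the hepatocyte range met that of macrophages for Ern1, of cholangiocytes for Herpud1 and of B cells for Hyou1. Atf5 averaged 248 ± 49.9 CPM in hepatocytes and 24.5 ± 13.9 CPM in B cells, the next class (SD, n = 6 mice). This B-cell level is set beside that of Alb below. Eif2ak3 was highest in B cells in all 6 mice, at 432 ± 63.3 CPM, with 185 ± 30.1 CPM in T/NK cells and 47.1 ± 16.0 CPM in hepatocytes. Ppp1r15a was highest in endothelial cells in all 6 mice, at 23.0 ± 5.66 CPM, followed by macrophages at 9.12 ± 1.43 CPM. Edem1 was highest in T/NK cells in all 6 mice, at 130.5 ± 11.4 CPM, although the ranges of T/NK cells and macrophages met. Nupr1, a stress-induced chromatin protein, averaged 22.6 ± 6.22 CPM in stellate cells, 18.8 ± 6.27 CPM in macrophages and 0.184 ± 0.172 CPM in hepatocytes. Phgdh and Psat1, enzymes of serine synthesis, were at most at 0.374 CPM on average in hepatocytes, while Phgdh averaged 20.8 ± 11.2 CPM in B cells and Psat1 6.78 ± 5.58 CPM in T/NK cells.

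Hepatocyte RNA released during isolation reaches other droplets, and its level bears on these values. Alb in T/NK nuclei stood at 15.7% to 21.9% of its hepatocyte level over the 6 mice, and in stellate nuclei at 5.63% to 14.2%. Herpud1 in T/NK nuclei stood at 6.99% to 32.4% of its hepatocyte level, in stellate nuclei at 5.03% to 9.20% and in macrophages at 4.69% to 15.7%. Atf5 in T/NK nuclei stood at 3.29% to 13.6% and in stellate nuclei at 4.42% to 7.92%. In B-cell nuclei it stood at 0% to 14.4%, against 15.7% to 27.1% for Alb. The range of Atf5 lay below that of Alb in B-cell, T/NK, cholangiocyte, endothelial and macrophage nuclei, and the 2 ranges met in stellate nuclei. Herpud1 in stellate nuclei stood below Alb in each knockout mouse and above it in each control mouse. In the controls it was at 8.99%, 8.46% and 8.91%, against 7.85%, 5.63% and 7.57% for Alb. The part of released hepatocyte RNA in these levels was not tested. Hspa5 in macrophages stood at 58.9% to 99.96% of its hepatocyte level and Atf6 at 97.5% to 166%, against 7.92% to 12.4% for Alb. Alb was itself higher in knockout than control nuclei in B cells (log2 fold change of 1.28 ± 0.15) and in T/NK cells (1.09 ± 0.14), each past the threshold with adjusted p of 1.32e-05 and 7.38e-05 in edgeR. In hepatocytes themselves the log2 fold change of Alb was 0.70 ± 0.26 (SE, adjusted p of 1 in edgeR). Of the 17 transcripts of free hepatocyte RNA listed, 14 were higher in the knockout in B cells and 14 in T/NK cells. In each of these 2 classes 1 passed the threshold. In hepatocytes 15 were higher and 0 passed.

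A cluster of 42 nuclei with plasma cell markers held the members at high levels. Pooled over the 6 mice it had 151137 UMIs, so its values carry counting error only and no replicate check. Of the 28 members with a UMI there, 18 had a lower bound of the 95% exact Poisson interval above every mouse of every tested class. The share of all genes that meet this is not given, so the count has no background beside it. Xbp1, which plasma cells need for secretion, was at 1376 CPM (1196 to 1577), Hsp90b1 at 1661 CPM (1462 to 1879), Edem1 at 1264 CPM (1091 to 1456) and Atf6 at 1522 CPM (1331 to 1732). Trib3 and Chac1 had 0 UMIs, which allows up to 24.4 CPM. The 11 plasma cell markers used to name the cluster include no member. They do include Derl3, which is on the wider unfolded protein list and among the leading genes of the cluster. In hepatocytes the 11 markers summed to 105, 114 and 139.9 CPM in the knockout mice, against 103, 136 and 98.7 CPM in the control mice.

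In stellate cells, where Plvap was deleted, no member passed the threshold among 23 tested, against 6 of 11513 genes (0.0521%). Of the 23 members 9 were higher and 14 lower in the knockout, with a median log2 fold change of -0.09. Unadjusted p was under 0.05 for 2 members (8.70%), against 4.46% of all genes tested. Ppp1r15a had 5.77, 4.73 and 7.91 CPM in knockout stellate cells, against 3.13, 4.30 and 1.75 CPM in control stellate cells. Its log2 fold change was 0.99 ± 0.41 (SE), with an adjusted p of 0.999 in edgeR, and 65 UMIs in all stood behind it. Pdia4 had 8.08, 7.31 and 11.6 CPM in knockout stellate cells, against 12.2, 12.4 and 17 CPM in control stellate cells, with a log2 fold change of -0.63 ± 0.27. Edem1 had 20.8, 24.5 and 21.4 CPM in knockout stellate cells, against 28.5, 29.1 and 26.2 CPM in control stellate cells. In all 3 genes the groups did not overlap. The same held for Hsp90b1 and Sel1l, both lower, which gave 5 of 23 members (21.7%), against 10.1% of all genes. With unscaled CPM the groups overlapped for Hsp90b1, Sel1l and Edem1, and only Ppp1r15a and Pdia4 stayed without overlap. Knockout 2 then lay above control 1 for Hsp90b1 (73.97 and 72.25 CPM) and Sel1l (62.01 and 61.93 CPM), and above control 3 for Edem1. The share of all genes without overlap in unscaled CPM is not given. Alb in stellate nuclei was at an unscaled 445, 557 and 919.5 CPM in the knockout mice, against 233, 215 and 238 CPM in the control mice. The sum of the 17 free-RNA transcripts overlapped, at 2141, 3017 and 3993 CPM in the knockout mice, against 1842, 2040.2 and 2313 CPM in the control mice. Apoa1 stood at 7.34%, 7.12% and 7.28% of its hepatocyte level in the knockout mice, against 6.98%, 7.34% and 7.90% in the control mice. The part of free RNA in these values was not tested.

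In endothelial cells no member passed among 25 tested, against 1 of 12988 genes (0.0077%), and 12 were higher and 13 lower. Sesn2 had 10.9, 17.5 and 11.5 CPM in knockout endothelial cells, against 19.8, 19.5 and 18.3 CPM in control endothelial cells. All knockout mice lay below the controls, with a log2 fold change of -0.54 ± 0.20 (SE) and an adjusted p of 0.998 in edgeR. With unscaled CPM the groups overlapped, with knockout 2 at 18.1 and control 3 at 17.6. Atf6 had 199, 176 and 182 CPM in knockout endothelial cells, against 167, 155 and 167 CPM in control endothelial cells, with no overlap and a log2 fold change of 0.19 ± 0.10. Ppp1r15a had 23.4, 15.9 and 20.3 CPM in knockout endothelial cells, against 19.3, 33.5 and 26.9 CPM in control endothelial cells, and the groups overlapped. With Hyou1, 3 of 25 members (12.0%) did not overlap, against 9.72% of all genes.

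In macrophages no member passed among 25 tested, against 0 of 12060 genes (0%), and 14 were higher and 11 lower. Xbp1 had 87.9, 84.7 and 86.4 CPM in knockout macrophages, against 66.6, 81.3 and 65.7 CPM in control macrophages. Atf4 had 49.2, 46.4 and 52.3 CPM in knockout macrophages, against 40.2, 41.2 and 43.5 CPM in control macrophages. The groups did not overlap for these 2 members (8%, against 8.68% of all genes), and the log2 fold changes were 0.28 ± 0.13 and 0.25 ± 0.13 (SE, adjusted p of 1 in edgeR). Calr, the lectin chaperone calreticulin, had 61.2, 49.2 and 54.1 CPM in knockout macrophages, against 36.2, 50.1 and 49.3 CPM in control macrophages, and there the groups overlapped.

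The smaller classes gave no call among the members. DESeq2 called 0 members in any class. Unadjusted p was under 0.05 for 1 member in endothelial cells (Sesn2, 4% of members, against 4.30% of all genes), 1 in T/NK cells (Dnajc3, 5.56%, against 4.40%) and 0 in macrophages (against 3.28%), B cells (4.46%), cholangiocytes (4.28%) and all nuclei (3.17%). In T/NK cells 0 of 18 members passed, against 1 of 6471 genes (0.0155%), which was Alb. Dnajc3, the cochaperone P58IPK that also inhibits PERK, had 254, 242 and 207 CPM in knockout T/NK cells, against 303, 269 and 314 CPM in control T/NK cells. Eif2ak3 had 181, 174 and 177 CPM in knockout T/NK cells, against 182, 235 and 252 CPM in control T/NK cells. The groups did not overlap for these 2 members (11.1%, against 9.83% of all genes), with log2 fold changes of -0.34 ± 0.16 and -0.32 ± 0.18 (SE, adjusted p of 0.999 in edgeR). With unscaled CPM those of Eif2ak3 did, with knockout 1 at 169.2 and control 1 at 168.9. Ern1 had 105, 153 and 84.8 CPM in knockout T/NK cells, against 91.1, 71.5 and 95.3 CPM in control T/NK cells, and overlapped. In B cells 0 of 13 members passed, against 3 of 4826 genes (0.0622%), and Calr alone did not overlap (7.69%, against 9.53% of all genes). The B-cell members with the smallest unadjusted p were Manf, Edem1 and Pdia4, with log2 fold changes of 0.67 ± 0.39, 0.57 ± 0.40 and -0.39 ± 0.31 (SE, adjusted p of 0.995 in edgeR). Manf, a secreted reticulum protein, had 36.5, 83.4 and 94.9 CPM in knockout B cells, against 38.3, 28.2 and 69.0 CPM in control B cells. Edem1 had 73.0, 125 and 50.9 CPM in knockout B cells, against 57.5, 21.1 and 73.9 CPM in control B cells. Both sets of values overlapped, as did those of Pdia4, at 69.0, 56.9 and 57.9 CPM in knockout B cells, against 86.2, 84.5 and 69.0 CPM in control B cells.

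In cholangiocytes 0 of 15 members passed, against 0 of 6656 genes (0%). Manf had 79.5, 64.1 and 109.9 CPM in knockout cholangiocytes, against 75.8, 129 and 157 CPM in control cholangiocytes. Atf6 had 115, 72.8 and 118 CPM in knockout cholangiocytes, against 123, 124 and 145 CPM in control cholangiocytes, and was the 1 member without overlap (6.67%, against 8.56% of all genes). Calr had 38.5, 52.4 and 47.1 CPM in knockout cholangiocytes, against 41.1, 31.4 and 32.3 CPM in control cholangiocytes. The log2 fold changes were -0.53 ± 0.27 for Manf, -0.35 ± 0.25 for Atf6 and 0.40 ± 0.37 for Calr (SE, adjusted p of 0.999 in edgeR).

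Summed over all kept nuclei, 0 of 30 members passed, against 2 of 18272 genes (0.0109%), and 9 were higher and 21 lower. Edem1 had 72.2, 64.3 and 68.2 CPM in knockout livers, against 80.0, 76.5 and 83.7 CPM in control livers. Sesn2 had 12.8, 13.5 and 12.9 CPM in knockout livers, against 14.7, 15 and 19.4 CPM in control livers. These 2 members (6.67%, against 7.48% of all genes) did not overlap. This sum also moves with the share of each class in a library.

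The difference of the knockout effect between hepatocytes and each other class was tested as a class by genotype term with mouse as block. It passed for 0 members against any of the 6 classes, and unadjusted p was under 0.05 for 1 member against endothelial cells and 1 against macrophages. Among all genes it passed for 0% against B cells, T/NK cells, cholangiocytes, endothelial cells and macrophages, and for 0.0193% against stellate cells. The smallest unadjusted p among members was that of Calr, hepatocytes minus macrophages, with a log2 difference of -0.57 ± 0.19 (SE) and an adjusted p of 1 in edgeR.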

How the data were processed

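Nuclei of 6 livers were profiled with the Chromium Single Cell 3′ kit, per the labels' protocols. The deposited matrices hold raw UMI counts per gene and barcode, per the file headers and values. Cell Ranger 7.0.1 and mm10 stand in the submitters' processing notes, and version 7.1.0 in the file headers. No source used here gives the intron or strand setting, so overlapping genes (Ddit3) are uncertain. The matrices held 27297 barcodes.

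Nuclei with at least 500 genes, 1000 UMIs and under 5% mitochondrial UMIs were kept, and 805 scrublet doublets were removed (2.22% to 3.77% per library), leaving 25662. Scanpy 1.11.5 and leidenalg 0.10.2 gave 27 clusters (3000 variable genes, 30 components, 15 neighbours, resolution 1, no integration). A class needed a marker score of 1, a lead of 0.5 and 3 markers in 10% of nuclei, thresholds chosen with the clusters known. No name was given if markers of another class outnumbered its own among its leading genes. A marker of another class found in 10% or more of nuclei of every cluster of the own class was not counted, a rule added after seeing the clusters that returned 1 hepatocyte cluster, led by Angptl8, to its class. Clusters over 90% from 1 library were left unnamed except in hepatocytes. In all, 7 clusters with 7.38% of nuclei stayed unnamed, and no portal mesenchymal class was obtained.

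Counts were summed per mouse and class where every library had 20 nuclei or more. Knockout was tested over control with edgeR 4.0.16's quasi-likelihood test (TMM, filterByExpr, robust, R 4.3.3), with Benjamini-Hochberg adjustment per class and a threshold of 0.05. Standard errors derive from the F statistic and cover the spread between mice. Levels per mouse are TMM-scaled CPM. Sums and comparisons between classes use unscaled CPM. The fit was tested on simulated data. Replicate numbers follow accession order and pair no mice. Alternatives were DESeq2 1.42.0, other scalings, no filter on low counts, leaving out libraries or clusters, and nuclei thinned to 1500 UMIs. The labels do not say whether the mice came from 1 litter.

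Members, lists and tests were chosen with earlier results of these data known. Values per mouse in hepatocytes were given for 6 sensors and factors and for the 6 members with the largest ratio of highest to lowest mouse at a mean of 10 CPM or more, and elsewhere for the 3 members with the smallest unadjusted p per class. Of the wider lists, the genes with the smallest unadjusted p in hepatocytes were named, and 1 of them is not reported here. Listed symbols that the features give under an older name were not counted. Intervals cover counting error only.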

Additional observations from a re-analysis of the deposited data

Results flagged for a closer look

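Atf6 moved in opposite directions in 2 classes, with every knockout mouse on one side of the controls in each. In cholangiocytes its log2 fold change was -0.35, with all 3 knockout mice below the 3 controls. In endothelial cells it was 0.19, with all 3 knockout mice above the 3 controls. Neither passed the threshold in edgeR (adjusted p of 0.999 and 0.998), and the difference between these 2 classes was not tested. Groups without overlap were near the share of all genes in both classes. They were found for 6.67% of members in cholangiocytes, against 8.56% of all genes. In endothelial cells they were found for 12.0% of members, against 9.72% of all genes.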

How the results depend on the processing

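No member was called in any class under any of the alternatives run, by edgeR or DESeq2, and the signs of 360 of 378 refitted fold changes of named members were kept. The order of mice in hepatocytes, with knockout 2 and control 1 lowest, was given by 18 of 26 members, by 17 with unscaled CPM and by 16 with thinned nuclei, settings chosen after seeing the data. Counts of all genes called moved by over 1.5 times under 40 of 98 alternatives. Without the filter on low counts they were 19 in B cells, 8 in T/NK cells, 8 in cholangiocytes, 70 in endothelial cells, 33 in macrophages and 74 in stellate cells. DESeq2 called 18 genes in endothelial cells, 13 in hepatocytes, 8 in macrophages, 13 in stellate cells and 15 in all nuclei. Without control 1 and knockout 2 together the counts were 16 in B cells, 2 in T/NK cells, 3 in cholangiocytes, 8 in endothelial cells, 2 in macrophages and 0 in all nuclei. With thinned nuclei they were 1 in B cells, 2 in endothelial cells, 1 in macrophages and 4 in all nuclei. Leaving out 1 mouse gave 2 to 16 calls in B cells, 1 to 4 in T/NK cells, 0 to 9 in cholangiocytes, 0 to 7 in endothelial cells and 0 to 2 in all nuclei. The share of members lower in the knockout then ran from 42.3% to 80.8% in hepatocytes, from 37.5% to 64.3% in cholangiocytes and from 32% to 72% in macrophages, and with thinned nuclei it was 71.4% in B cells.

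Fold changes in hepatocytes changed sign when 1 mouse was left out, with log2 ranges of -0.49 to 0.10 for Eif2ak3, -0.004 to 0.47 for Ern1, -0.15 to 0.29 for Atf6 and -0.13 to 0.33 for Xbp1. They were -0.73 to 0.17 for Sesn2, -0.26 to 0.49 for Herpud1, -0.48 to 0.29 for Pdia4 and -0.77 to 0.094 for Pdia6. With thinned nuclei the log2 fold change was 0.14 for Sesn2 in hepatocytes and 0.054 for Eif2ak3 in T/NK cells. Members with knockout 2 and control 1 lowest numbered 0 in T/NK cells with unscaled CPM, and 2 in endothelial cells, 5 in macrophages and 1 in stellate cells with thinned nuclei. By summed level of thinned nuclei, these mice were lowest in 1 class for the sensors, 1 for the chaperones and 4 for the degradation genes. The cause of these shifts was not tested. Some members fell below the filter in thinned nuclei and gave no value. No paired analysis was possible because the labels share no replicate numbers between groups. Depth limited members of few UMIs, such as Psat1 with 8 in all hepatocytes.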
